A study of Mus musculus with 2 samples.

Results

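Ly49-positive innate-like T cells were taken from the scRNA-seq data of immune cells in liver tumors, as T cells that carried transcripts of the Ly49 receptors Klra1 (Ly49A) or Klra6 (Ly49F). A member had at least 2 UMIs of Cd3d, Cd3e and Cd3g together and at least 2 UMIs of Klra1 and Klra6 together. It had no UMI of Ncr1, Cd4, Pdcd1 or Gzmk, and fewer than 4 of 10 mitosis genes were detected in it. A UMI (unique molecular identifier) tags a captured RNA molecule, so that PCR copies are counted once. The gate held 831 of 25814 cells, which were 566 of 14201 cells in the lenvatinib library and 265 of 11613 cells in the combo library. Members were thus chosen by their measured UMIs of these genes, so the levels of Klra1, Klra6, the CD3 genes and the excluded genes are given as a description of the members and carry no test.

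The cells were live CD45+ cells sorted from liver tumors of male wild-type C57BL/6J mice, 6 to 8 weeks old, in which hydrodynamic injection of plasmids for human MYC, a guide RNA against Trp53 and sleeping beauty transposase had produced lenvatinib-resistant Trp53KO/MYCOE hepatocellular carcinoma. Every mouse of either library therefore carried the same tumor genotype and had lenvatinib-resistant disease, with lenvatinib begun 12 days after the plasmids and resistance defined after 25 days. The lenvatinib library came from tumors given lenvatinib at 30 mg/kg, a multikinase inhibitor of VEGF and FGF receptors. The combo library came from tumors given lenvatinib at 30 mg/kg with palbociclib at 100 mg/kg, an inhibitor of CDK4 and CDK6. There was 1 library per condition and no untreated library, and the number of mice pooled in each was not given in the sources used here. No p-value or standard error was therefore computed between combo and lenvatinib, and the 95% intervals below cover counting error only.

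Ly49 receptors are C-type lectin-like proteins of mouse NK cells that bind MHC class I molecules. Most of them carry an inhibitory motif in the cytoplasmic tail, while a few pair with the adaptor DAP12 (Tyrobp) and activate. They are the functional counterparts of human KIRs. A small share of T cells, mostly CD8 T cells with a memory phenotype, also displays Ly49 receptors. Such cells often contain the Ikaros family factor Helios (Ikzf2) and depend on IL-15 through CD122 (Il2rb).

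The Ly49 genes lie side by side on chromosome 6 and share much of their sequence. In the GENCODE annotation of GRCm38 (mm10), Klra6 spans chr6:130013033-130026954 and Klra1 spans chr6:130363917-130386874, both on the minus strand. The RefSeq windows of 250 bases before the gene start (GRCm38.p6, minus strand, printed 5′ to 3′) are shown for Klra6 and Klra7, which the members expressed, and for Klra4 and Klra8, which were abundant in NK cells and low in the members. Capitals mark the letters CTTTGAT, the core of the motif bound by TCF-1 (Tcf7), which was chosen after the sequences and the levels had been seen. The windows are chr6:130026955-130027204 for Klra6, chr6:130233323-130233572 for Klra7, chr6:130067272-130067521 for Klra4 and chr6:130129899-130130148 for Klra8.
Klra6: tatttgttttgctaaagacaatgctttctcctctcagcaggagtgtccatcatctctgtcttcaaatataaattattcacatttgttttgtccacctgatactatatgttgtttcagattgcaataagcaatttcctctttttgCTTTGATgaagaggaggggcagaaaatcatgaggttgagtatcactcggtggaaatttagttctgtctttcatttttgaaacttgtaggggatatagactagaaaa
Klra7: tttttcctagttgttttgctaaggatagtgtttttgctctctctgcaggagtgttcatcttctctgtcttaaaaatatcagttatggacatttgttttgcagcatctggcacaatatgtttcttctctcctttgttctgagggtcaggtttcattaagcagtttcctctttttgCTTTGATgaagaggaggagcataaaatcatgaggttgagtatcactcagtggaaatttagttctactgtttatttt
Klra4: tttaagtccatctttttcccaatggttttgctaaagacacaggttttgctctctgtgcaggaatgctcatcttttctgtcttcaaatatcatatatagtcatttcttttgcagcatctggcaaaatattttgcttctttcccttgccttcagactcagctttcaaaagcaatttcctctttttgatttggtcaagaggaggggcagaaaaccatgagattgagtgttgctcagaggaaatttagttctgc
Klra8: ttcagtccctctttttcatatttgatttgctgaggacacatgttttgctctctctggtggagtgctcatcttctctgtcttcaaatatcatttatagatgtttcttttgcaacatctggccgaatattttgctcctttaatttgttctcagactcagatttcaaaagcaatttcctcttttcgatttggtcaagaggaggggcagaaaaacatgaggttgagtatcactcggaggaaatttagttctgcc
Both strands were searched. The letters CTTTGAT were found in windows of 2 of 11 Klra genes, Klra6 and Klra7, and in 1053 of 32851 windows of all genes (3.21%). They ended 99 bases before the gene start in Klra6 and 69 bases before it in Klra7. The windows of Klra1, Klra3, Klra5 and Klra9, which the members also expressed, did not hold these letters, so the letters did not separate the Ly49 genes of the members from the others. The window of Klra6 was identical to that of Klra7 at 67.5% of aligned positions, to that of Klra4 at 59% and to that of Klra8 at 61%.

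Ly49 UMIs per member were few. The sum of Klra1 and Klra6 had a median of 4 in both libraries and reached 21 in the lenvatinib library and 23 in the combo library. Just inside the gate, 161 lenvatinib and 79 combo members had exactly 2 UMIs. Just outside it, 319 lenvatinib and 140 combo cells had 1 UMI and met every other condition. The level of Ikzf2 rose over cells with 0, 1 and 2 Ly49 UMIs. Ikzf2 was at 568 CPM in lenvatinib members with 2 UMIs, 493 CPM in cells with 1 UMI and 276 CPM in cells with none. In the combo library the same values were 530, 388 and 109 CPM. CPM is the usual scaling of the UMIs of a gene to the UMIs summed over all genes and cells of a class in a library. Other genes could step at the limit. From 1 to 2 UMIs, Atp1b1 went from 40.2 to 66.6 CPM in the lenvatinib library and from 36.3 to 103 CPM in the combo library. Ccr7 went from 153 to 73.3 CPM and from 97 to 98.3 CPM. For Ikzf2 the limit at 2 UMIs thus cut through a gradient. The cells differed also in depth, since the median UMIs per cell were 8010 and 9056 in members (lenvatinib and combo), 6854 and 7954 in cells with 1 Ly49 UMI, and 5823 and 5974 in cells with none.

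Free Ly49 RNA did not reach the gate often in cells that should lack it. Among T cells with Cd4 UMIs, 0.709% of lenvatinib and 0.522% of combo cells had 2 or more UMIs of Klra1 and Klra6. The same share was 0.468% and 0% in B cells, which allows up to 0.688% in the latter, and 0.555% and 0.227% in neutrophils, at median depths of 2595 to 4939 UMIs. By Scrublet, 14 members (2.47%) in the lenvatinib library and 10 (3.77%) in the combo library were called doublets. The libraries shared 49 barcodes, none of them between members, and 4 members had a barcode that occurred in the other library.

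Members were less frequent in the combo library. They made up 3.99% of cells (exact 95% interval 3.67 to 4.32%) in the lenvatinib library and 2.28% (2.02 to 2.57%) in the combo library, a ratio of 0.573 (0.467 to 0.70). Of CD3-positive cells they were 7.53% and 4.63%. Most CD3-positive cells with at least 2 Ly49 UMIs that were left out had an Ncr1 UMI, which took the number from 991 to 684 cells in the lenvatinib library and from 418 to 305 in the combo library. After each cell was thinned to 2000 UMIs before gating, the shares were 1.62% and 0.81%. The ratio of combo to lenvatinib stayed between 0.50 and 0.646 over 10 other gates, filters and denominators, while the share itself moved with depth and with the Ly49 limit. Cells with over 50 neutrophil UMIs, which were more frequent in the combo library, are part of its denominator, and without them the ratio was 0.646. Whether the difference came from the treatment cannot be told apart from the library.

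By the gate, each member fell into 1 of 3 patterns of detected Ly49 genes. Only Klra1 was detected in 209 lenvatinib members (36.9%), only Klra6 in 141 (24.9%) and both in 216 (38.2%). In the combo library these were 110 (41.5%), 51 (19.2%) and 104 (39.2%) members. With a median of 4 UMIs of both genes together, a gene without a UMI may have been missed. Klra6, for instance, was detected in 63.1% of lenvatinib and 58.5% of combo members, but after thinning in 31.5% and 25.3%. The patterns thus describe detection and not which receptors a cell has. Among the other 9 Klra genes, at least 1 was detected in 83.2% of lenvatinib and 82.6% of combo members, compared with 31.4% and 21.4% of Ly49-negative T cells. NK cells with Klra1 or Klra6 had at least 1 of them in 96.8% and 96.7% of cells.

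To place the members among their nearest neighbors, they were compared with 2 classes of the same libraries. Ly49-negative T cells met the same gate with no Klra1 or Klra6 UMI (3085 lenvatinib and 2274 combo cells). Ly49-positive NK cells had no CD3 UMI, at least 1 Ncr1 UMI and at least 2 Klra1 or Klra6 UMIs (280 lenvatinib and 92 combo cells). Counts were summed per class and library and tested with the quasi-likelihood test of edgeR with library as block, at an adjusted p of 0.05, with the genes of the gate left out. Since each class has 1 sum per library, this test rests on 2 libraries that also differ in treatment and on a spread shared over genes.

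Of the Ly49 genes outside the gate, Klra7 (Ly49G) was the one that most set the members apart from Ly49-negative T cells. Klra7 was at 328 CPM in lenvatinib members and 260 CPM in combo members, against 44.9 and 22.1 CPM in Ly49-negative T cells. Its ratio was 7.3 (6.72 to 7.94) in the lenvatinib library and 11.8 (10.3 to 13.4) in the combo library, and its log2 fold change was 3.21 (edgeR adjusted p = 2.24e-12). Klra9 was at 72 and 79.7 CPM in members and at 23.4 and 25.8 CPM in Ly49-negative T cells, with a log2 fold change of 1.65 (edgeR adjusted p = 1.5e-09). Klra3 (log2 fold change 1.80), Klra5 (1.66) and Klra8 (0.88) also passed the test. Thus 5 of 8 tested Ly49 genes were higher and none was lower, where 2.4% of 12046 tested genes were higher and 6.33% lower.

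Klra8 and Klra4 separated members from NK cells. Klra8 encodes Ly49H, the activating receptor for a cytomegalovirus protein, and Klra4 encodes Ly49D, another DAP12-coupled receptor. Klra4 was at 11.3 and 3.42 CPM in members and at 578 and 594 CPM in NK cells, a ratio of 0.0196 (0.0147 to 0.0256) in the lenvatinib library and of 0.00575 (0.00261 to 0.011) in the combo library. Klra8 was at 19.5 and 10.6 CPM in members and at 556 and 541 CPM in NK cells. These member levels were 1.96% and 0.58% of the NK level for Klra4, against 1.73% and 0.17% in B cells, which do not make Ly49 receptors. For Klra8 they were 3.51% and 1.97% of the NK level, against 2.14% and 0% in B cells. The inhibitory receptors Klra1 and Klra7 reached 57.8% and 68.3% of the NK level in the lenvatinib library and 55% and 79% in the combo library. Klra6 was higher in members, at 198 and 151 CPM against 61.1 and 53 CPM in NK cells. Of the 7 Ly49 genes tested against NK cells, Klra5 was higher in members (log2 fold change 1.22) and 6 were lower. Over all genes tested against NK cells, 7.38% were higher and 7.98% lower. For Klra7 (log2 fold change -0.40) the call was lost with DESeq2 and at 3 Ly49 UMIs. Klra1 and Klra6 were used to pick both classes and are not tested. The genes share near-identical stretches, so the division of reads among them is uncertain.

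**Figure D1:**
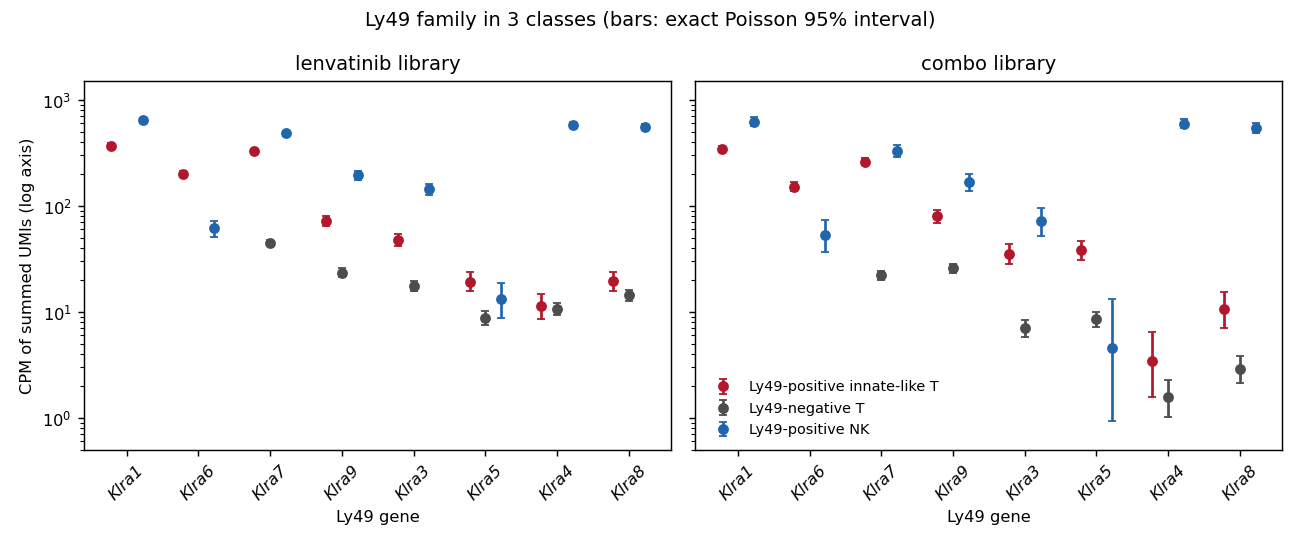
CPM of 8 Ly49 genes on a log axis in Ly49-positive innate-like T cells, Ly49-negative T cells and Ly49-positive NK cells, with exact Poisson 95% intervals, for each library. Klra1 and Klra6 are absent from Ly49-negative T cells by the gate, and Klra4 and Klra8 in members lie far under their NK level of 541 to 594 CPM.

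Most T-cell receptor and CD3 genes were higher, and most NK genes lower, in members than in NK cells. The gates chose members with CD3 UMIs and no Ncr1 UMI, and NK cells with Ncr1 UMIs and no CD3 UMI. The contrasts below thus follow in part from the gates and are not independent evidence of T-cell identity. Trac, the constant region of the T-cell receptor alpha chain, was detected in 90.1% of lenvatinib and 94.3% of combo members, against 15% and 25% of NK cells. Trac was at 497 and 555 CPM in members and 21.3 and 36.3 CPM in NK cells (log2 fold change 4.38). Of the list of T-cell receptor, CD3 and coreceptor genes, 12 of 16 tested were higher than in NK cells and 1 was lower, where 7.38% of 9432 tested genes were higher and 7.98% lower. NK genes differed in how far they lay under the NK level. Klrd1 was at 48.5% and 53.9% of it in lenvatinib and combo members, Klre1 at 42.5% and 30.1%, and Xcl1 at 50% and 44.8%. Cd160 was at 114% and 168% of it, while the next 3 genes were far lower. Tyrobp, the adaptor of activating Ly49 receptors, was at 221 and 345 CPM in members and at 2065 and 2325 CPM in NK cells (log2 fold change -2.93). Gzma, which encodes granzyme A, was at 253 and 89.2 CPM in members and at 4294 and 4690 CPM in NK cells (log2 fold change -4.74). Prf1, the perforin gene, was at 43 and 33 CPM against 471 and 630 CPM in NK cells (log2 fold change -3.72). All 9 tested NK cell markers were lower than in NK cells.

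Ikzf2 and Cd160, further markers named for these cells that the gate did not use, were checked in the same way. Ikzf2, which encodes Helios, was at 701 CPM (678 to 725) in lenvatinib members and 477 CPM (451 to 505) in combo members. It was at 276 and 109 CPM in Ly49-negative T cells and at 54.8 and 18.2 CPM in NK cells. The log2 fold change was 1.75 against Ly49-negative T cells (edgeR adjusted p = 8.39e-09) and 3.95 against NK cells. At 2000 UMIs per cell, Ikzf2 was detected in 61.2% of lenvatinib and 49.1% of combo members, compared with 25.4% and 13% of Ly49-negative T cells and 3% and 0.8% of B cells. Cd160, a receptor of the immunoglobulin family that binds HVEM, was at 155 and 212 CPM in members and 63.7 and 53.5 CPM in Ly49-negative T cells, with a log2 fold change of 1.65 (edgeR adjusted p = 9.82e-09). Cd160 separated members from Ly49-negative T cells more than from NK cells, which held it at 136 CPM (121 to 153) in the lenvatinib library, where the interval of members was 145 to 167 CPM. Ikzf2 and Cd160 had been named as markers of these cells with results of these data known, so their direction is not independent evidence.

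NK-cell receptors other than Ly49 were mostly higher in the members. Of 22 such receptors and adaptors, 13 were higher than in Ly49-negative T cells and 2, Klrg1 and Fcgr3, were lower. Over all tested genes, 2.4% were higher and 6.33% lower. Fcgr3, which neutrophils and macrophages also express, did not pass the test once cells with RNA of other lineages were left out. The median log2 fold change over the list was 0.96, while it was -0.01 over all tested genes. Klre1 was at 315 and 275 CPM in members and 88.4 and 69.3 CPM in Ly49-negative T cells, with a log2 fold change of 1.93 (edgeR adjusted p = 4.44e-11). Klrb1c, which encodes NK1.1, was at 114 and 142 CPM against 35.8 and 42.3 CPM (log2 fold change 1.73). Klrk1 (NKG2D) had a log2 fold change of 1.16, Klrd1 (CD94) of 1.0, and Klrc2 (NKG2C) of 1.11. Cd244a, which encodes 2B4, had a log2 fold change of 1.40. The members stayed under NK cells for most of this list, of which 15 of 21 tested genes were lower and 2 were higher. Against NK cells, 7.98% of all tested genes were lower and 7.38% higher. Klrb1c, for instance, reached 23.9% and 27.7% of the NK level.

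Fcer1g and Tyrobp, which signal for many of these receptors, carried the limits of the comparison. Fcer1g was at 459 and 648 CPM in members and at 182 and 474 CPM in Ly49-negative T cells (log2 fold change 0.91, edgeR adjusted p = 0.000154), but this call was lost with DESeq2 (adjusted p = 0.589). Tyrobp was higher in lenvatinib members, at a ratio of 1.23 (1.15 to 1.32), and lower in combo members, at a ratio of 0.647 (0.604 to 0.693). Both genes are abundant in neutrophils. Neutrophil markers summed to 1830 and 33757 CPM in Ly49-negative T cells and to 1106 and 11025 CPM in members. All 9 were lower in members, where 6.33% of all tested genes were. When cells with RNA of plasma, B, myeloid, neutrophil or gamma-delta T cells were left out of both classes, which was decided after seeing the data, the log2 fold change was 1.78 for Fcer1g and 0.66 for Tyrobp, both past the test.

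The 12 genes most raised in members over Ly49-negative T cells, ranked by the smaller of the within-library ratios, were Klra7, Klre1, Klrb1c, Klra9, Xcl1, Spry2, Ikzf2, Cd160, Cd7, Klhdc2, Atp1b1 and Gem. Xcl1, a chemokine that attracts cross-presenting dendritic cells, was at 1006 and 1018 CPM in members and 344 and 249 CPM in Ly49-negative T cells (log2 fold change 1.81, edgeR adjusted p = 2.37e-10). Spry2, an inhibitor of receptor tyrosine kinase signaling, was at 119 and 74.8 CPM against 40.9 and 23.1 CPM. Cd7, a surface molecule of T and NK cells, was at 229 and 289 CPM against 95 and 93.8 CPM. Of these genes Klra7, Klre1, Klrb1c, Klra9, Xcl1, Spry2, Atp1b1 and Gem were lower in members than in NK cells, while Ikzf2, Cd160 and Klhdc2 were higher and Cd7 did not pass the test. Klhdc2, a substrate receptor of a ubiquitin ligase, was at 120 and 167 CPM in members against 51.6 and 69.7 CPM in NK cells, and its log2 fold change was 1.47 against Ly49-negative T cells and 1.29 against NK cells.

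Many of the genes at the other end of this ranking belong to other cell types. Igkc, the immunoglobulin kappa constant region, was at 245 and 356 CPM in members and at 2764 and 10943 CPM in Ly49-negative T cells, and Jchain, Ighg2c, Igha, Apoe, Slpi and Cxcl2 were likewise lower in members. These are genes of plasma cells and of myeloid or epithelial cells. When cells with 10 or more Igkc UMIs, 3 or more Lyz2 UMIs, over 50 neutrophil UMIs or a Trdc UMI were left out of both classes, the log2 fold change of Jchain went from -4.39 to -0.26. The calls of Jchain, Ighg2c, Igha and Slpi were lost, while Apoe and Cxcl2 kept theirs. Igkc itself set this filter, so its loss of the call is no result. The count of genes lower in members went from 762 to 459 (4.09% of those tested) and the count of higher genes from 289 to 417 (3.72%). The coreceptor genes described next kept their call in that comparison.

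The CD8 coreceptor genes, Themis, Cd5 and Cd6 were lower in members. Cd8b1, the beta chain of the CD8 coreceptor, was at 100 and 62.6 CPM in members and 341 and 282 CPM in Ly49-negative T cells (log2 fold change -1.92, edgeR adjusted p = 4.27e-10). Cd8a, the alpha chain, was at 153 and 83.9 CPM against 253 and 183 CPM (log2 fold change -0.88). Cd8b1 thus fell further than Cd8a. Themis, which tunes T-cell receptor signals in thymic selection, was at 59.8 and 24.7 CPM against 130 and 79.5 CPM (log2 fold change -1.29). Cd5 (log2 fold change -0.44) and Cd6 (-0.73), which dampen T-cell receptor signaling, were lower as well. Of the 16 tested genes of T-cell receptor, CD3 and coreceptors, 2 were higher and 6 were lower than in Ly49-negative T cells. Trac, of the same list, was not lower, at 497 and 555 CPM in members against 447 and 435 CPM. Trbc2, a beta chain constant region, was detected after thinning in 81.3% and 83% of members against 76.7% and 74.5% of Ly49-negative T cells. Over all tested genes, 2.4% were higher and 6.33% lower.

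Of 26 transcription factors tested, 3 were higher (Ikzf2, Id3 and Bcl6) and 8 were lower, where 2.4% of all tested genes were higher and 6.33% lower. Maf was at 23 and 21.3 CPM against 131 and 69.7 CPM in Ly49-negative T cells, with a log2 fold change of -2.18 (edgeR adjusted p = 1.91e-09). Rora, a factor of type 17 and innate lymphocytes, was at 43.6 and 57.7 CPM against 177 and 153 CPM (log2 fold change -1.71). Zbtb16, which encodes PLZF, the factor of NKT and MAIT cells, was detected in 1.24% of lenvatinib and 2.64% of combo members, compared with 3.89% and 5.1% of Ly49-negative T cells. Eomes and Tbx21, the T-box factors of cytotoxic lymphocytes, had log2 fold changes of -0.02 and 0.30 and did not pass the test. Tcf7 and Lef1, factors of naive and memory T cells, had log2 fold changes of 0.28 and -0.08 and did not pass it either, although both passed it when cells with RNA of other lineages were left out (0.22 and -0.28). Against NK cells they were higher, by 0.66 and 1.92.

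Naive and memory genes gave a mixed picture. Of 14 genes tested, 4 were higher in members and 6 were lower, where 2.4% of all tested genes were higher and 6.33% lower. Il2rb, the IL-2 and IL-15 receptor beta chain, was at 862 and 590 CPM against 612 and 353 CPM (log2 fold change 0.64). Ly6c2 and Cd27 rose with it, by 0.48 and 0.45 on the log2 scale. Ccr7, the lymph node homing receptor, was at 58.2 and 82 CPM against 176 and 143 CPM (log2 fold change -1.20). Dapl1, Igfbp4, Ly6a, Il7r and S1pr1 were the other genes that were lower. Cd44, a marker of antigen-experienced T cells, had a log2 fold change of -0.21 and did not pass the test. Hence the members had more of the transcripts of CD122 and Ly6C and less of Ccr7 and Il7r than other T cells of the same gate.

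Of 14 cytotoxic genes tested, 5 were higher (Nkg7, Tnfsf10, Ctsw, Serpinb9 and Serpinb6b), where 2.4% of all tested genes were higher, and Gzmm was lower. The log2 fold changes of the 5 were 0.31 to 0.83. Gzmb had a log2 fold change of 0.34, Ifng of 0.11 and Prf1 of -0.15, and none of the 3 passed the test. Gzma was higher in members at a ratio of 1.85 (1.73 to 1.98) in the lenvatinib library and lower at 0.721 (0.627 to 0.825) in the combo library, and its direction also turned when called doublets were left out. Thinned to 2000 UMIs, Gzma was detected in 12.1% and 8.3% of members, 16.9% and 8.71% of Ly49-negative T cells, and 16.8% and 3.71% of B cells, so by cells the lenvatinib members were not above B cells, which do not make it. Among inhibitory checkpoint genes, 2 of 12 were higher (Tnfrsf9 and Nr4a2) and 5 were lower, where 6.33% of all tested genes were lower. Ctla4 was at 20.8 and 45.2 CPM against 81.6 and 97.3 CPM (log2 fold change -1.52). Cells with Pdcd1 had been gated out of both classes, which bears on this list.

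**Figure D2:**
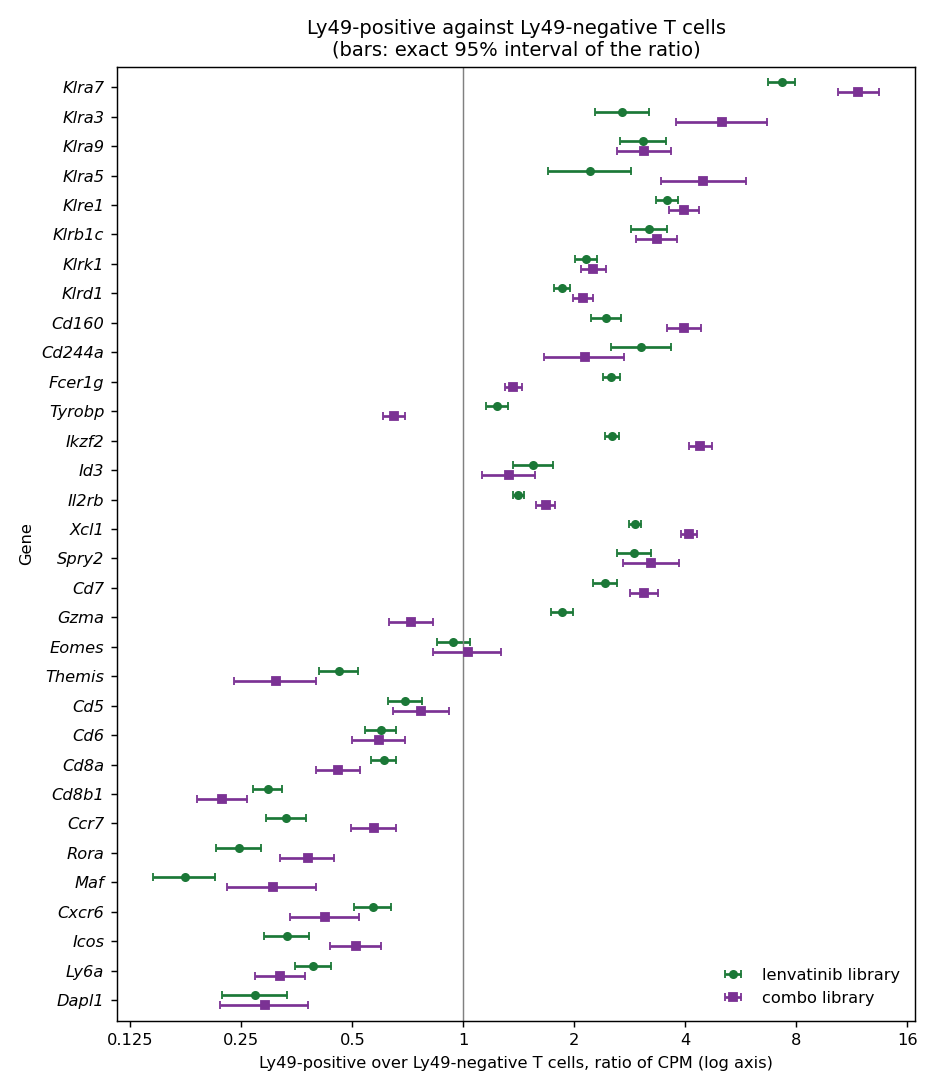
Ratio of CPM in Ly49-positive innate-like T cells over Ly49-negative T cells on a log axis, with exact 95% intervals, for selected genes in the lenvatinib library and in the combo library. Both libraries lie on the same side of 1 for most genes, such as Klra7 at 7.3 and 11.8 and Cd8b1 at 0.294 and 0.222, while Gzma and Tyrobp lie on opposite sides.

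Markers of other T-cell lineages were checked, since a gate on 2 Ly49 UMIs may hold several. Of 6 regulatory T-cell markers, 5 were lower than in Ly49-negative T cells and none was higher, where 6.33% of all tested genes were lower. Foxp3 was at 1.44 CPM in lenvatinib members and had no UMI in combo members. NKT and MAIT cell markers summed to 19.7 and 22 CPM in members and to 43.8 and 49.9 CPM in Ly49-negative T cells. Trav11, the segment of the invariant NKT receptor, had a UMI in 1 lenvatinib and 6 combo members, and Trav1, that of the MAIT receptor, in 2 and 2. None of the 6 combo members with Trav11 had a CD8 UMI and 2 had a Zbtb16 UMI. Trdc UMIs were found in a minority of members. Trdc, the delta chain constant region, was detected in 8.3% of lenvatinib members (47 cells) and 8.68% of combo members (23 cells), against 13.3% and 10.9% of Ly49-negative T cells, and 27 of the 47 and 17 of the 23 also had Trac. Trdc was also detected in 30.4% and 35.9% of NK cells without a CD3 UMI, so a Trdc UMI alone does not mark a gamma-delta T cell here. Of 10 gamma-delta T-cell markers tested, 7 were lower than in Ly49-negative T cells and 2 were higher. Of all 12046 tested genes, 2.4% were higher and 6.33% lower. Trdv4, the delta segment with most UMIs in Ly49-negative T cells (197 of 256 and 244 of 280 Trdv UMIs), had 3 UMIs in the members of each library. The gamma segment Trgv2 went the other way. It was detected in 21.2% of lenvatinib and 23% of combo members, against 10.8% and 11.7% of Ly49-negative T cells, without thinning. Il17a was at 1.03 and 1.52 CPM in members against 36.3 and 46.4 CPM. With cells holding a Trdc UMI or RNA of other lineages left out of both classes, the log2 fold change of Rora was -1.79 and that of Maf was -2.30.

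Receptor segments were spread over many genes. In lenvatinib members 52 Trav and 20 Trbv segments had UMIs, in 24% and 21% of cells, and in combo members 46 and 17 segments had UMIs. Trbv12-2 held 29 of 147 Trbv UMIs (19.7%, 13.6 to 27.1%) in lenvatinib members and 24 of 101 (23.8%, 15.9 to 33.3%) in combo members, compared with 96 of 487 (19.7%) and 86 of 435 (19.8%) in Ly49-negative T cells. The intervals of members and Ly49-negative T cells thus overlapped for the segment with most UMIs. Several Trbv segments share sequence, and 3′ libraries read V segments in few cells, so clones cannot be told from these counts.

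CD8 transcripts divided the members. A Cd8a or Cd8b1 UMI was found in 306 of 566 lenvatinib members (54.1%, 49.9 to 58.2%) and in 101 of 265 combo members (38.1%, 32.2 to 44.3%). Thinned to 2000 UMIs per cell, the shares were 28.3% (24.6 to 32.2%) and 11.7% (8.09 to 16.2%), and in B cells the unthinned share was 8.9% and 5.43% at median depths of 3274 and 3460 UMIs. The Ly49-negative T cells were at 63% and 54.7%, or 50.6% and 43.1% after thinning. The share was thus lower in the combo library in both classes, and the ratio of summed Cd8a was 0.547 (0.469 to 0.636) in members and 0.725 (0.693 to 0.759) in Ly49-negative T cells.

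The CD8 share also went with the pattern of detected Ly49 genes, but less clearly in the combo library after thinning. Among lenvatinib members with only Klra6 it was 74.5% (66.4 to 81.4%), among those with only Klra1 it was 41.6% (34.9 to 48.6%), and with both genes it was 52.8% (45.9 to 59.6%). The intervals of the first and the second pattern did not overlap, also after thinning, where the shares were 44.3% (35.9 to 52.9%) and 20.9% (15.5 to 27.1%). In the combo library the order of Klra6-only and Klra1-only members was the same, at 43.1% (29.3 to 57.8%) and 26.4% (18.4 to 35.6%), with overlapping intervals. The combo members with both genes were highest there, at 48.1% (38.2 to 58.1%), so Klra6-only members stood highest in the lenvatinib library only. After thinning, the combo shares were 13.7% (5.7 to 26.3%) with only Klra6 and 8.18% (3.81 to 15%) with only Klra1. With both genes the thinned share was 14.4% (8.3 to 22.7%), and all these intervals overlapped. Other transcripts differed between Klra1-only and Klra6-only members too. Trac was detected in 80.9% and 96.5% of them in the lenvatinib library, and in 92.7% and 98% in the combo library. Trdc was detected in 12.9% and 5.67%, and in 11.8% and 7.84%. Fcer1g was at 575 and 274 CPM in the lenvatinib library, but at 663 and 704 CPM in the combo library. The part of these differences in the CD8 shares was not tested. Cells of a library are not replicates, and the intervals say nothing on how the shares vary between mice.

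**Figure D3:**
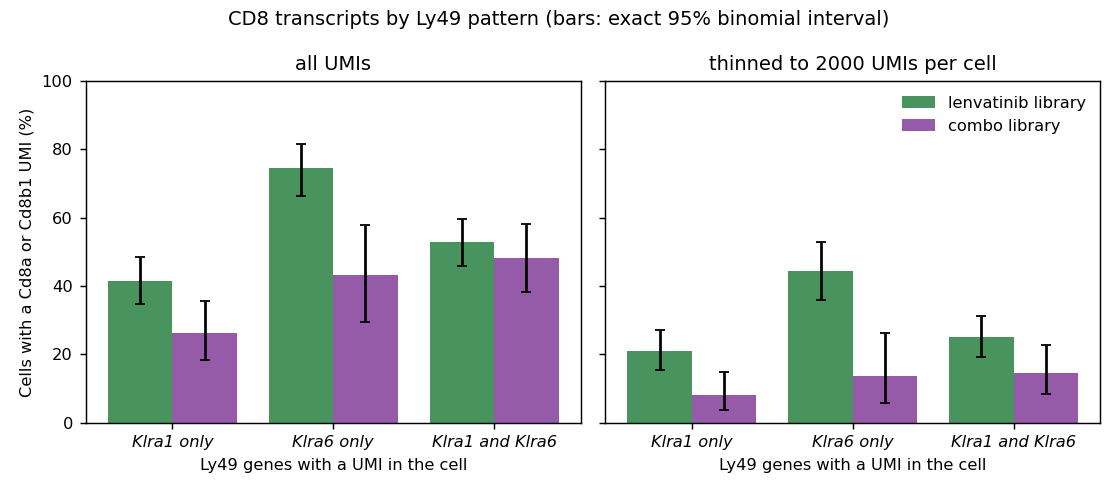
Share of Ly49-positive innate-like T cells with a Cd8a or Cd8b1 UMI, in percent, by which of Klra1 and Klra6 had a UMI in the cell, with exact 95% binomial intervals, from all UMIs on the left and after thinning to 2000 UMIs per cell on the right. The lenvatinib members with only Klra6 stand highest, at 74.5% and 44.3%.

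Members with neither CD8 gene were 260 lenvatinib and 164 combo cells, and 83.8% and 92.7% of them had a Trac UMI. Their median depth was 7088 and 8573 UMIs, against 8755 and 10603 UMIs in members with a CD8 UMI, and the part of depth in this division was not tested. Klrb1c was at 180 and 179 CPM in the cells with neither gene and at 70.5 and 95.6 CPM in those with a CD8 UMI. Fcer1g was at 671 and 790 CPM against 320 and 473 CPM, Atp1b1 at 117 and 102 CPM against 36.8 and 49.9 CPM, and Ikzf2 at 907 and 540 CPM against 565 and 400 CPM. Members with a CD8 UMI were higher in Ccr7 (79 and 120 CPM against 26.5 and 50.9 CPM), Themis (81.7 and 40.6 CPM against 26.5 and 11.7 CPM) and Eomes (107 and 48.2 CPM against 72.6 and 31.7 CPM). These subgroups were drawn from the members after the levels had been seen, and their values are given with no test. Trdc was at 64.8 and 62.6 CPM in members with neither CD8 gene and at 14 and 22 CPM in the others, and its part in these differences was not tested.

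Levels within the members were next compared between combo and lenvatinib. The median ratio of combo to lenvatinib over the 2837 genes with at least 50 CPM in either library was 0.901, or -0.15 on the log2 scale, so ratios are read against that value. Only 34 genes (1.2%) were over 2-fold and 27 (0.952%) were under 0.5-fold, and with TMM scaling the split was 39 and 17. In Ly49-negative T cells the same counts were 113 and 29 of 2950 genes, with a median of -0.21 on the log2 scale. The 12 genes with the largest ratios were Chil3, Retnlg, Lcn2, Mmp8, Hp, Lyz2, Ngp, Wfdc21, Ltf, S100a9, G0s2 and Camp. These are genes of neutrophils and other myeloid cells, and S100a9 was at 429 CPM in lenvatinib and 4234 CPM in combo members. In the combo library 9 members had over 50 UMIs of S100a8 and S100a9 and held 87.1% of these UMIs over all members, while 5 lenvatinib members did so and held 77.4%. Without such cells, which were set aside after seeing the data, 19 genes (0.672%) were over 2-fold and 31 (1.1%) were under 0.5-fold. Neutrophil genes such as Retnlg, Lcn2 and S100a9 still led the ratios, with S100a9 at 100 and 588 CPM. This RNA was spread over the whole combo library, where S100a8 was detected in 99.2% of members and 93.6% of B cells, against 58.7% and 42.4% in the lenvatinib library.

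Interferon-stimulated genes were lower in combo members. Against Ly49-negative T cells, 7 of the 19 tested genes of this list were lower in members and none was higher. Of all 12046 tested genes, 6.33% were lower and 2.4% higher. All 7 genes of this list with at least 50 CPM had a ratio under 1, where 1868 of all 2837 genes did. Of these 7 genes 2 were under 0.5-fold, where 0.952% of all genes were. The median ratio of the list was 0.566. Ifi27l2a fell from 294 to 90.7 CPM, a ratio of 0.308 (0.268 to 0.354), against 0.431 in Ly49-negative T cells. Isg15, a ubiquitin-like antiviral protein, was at 83.5 and 27.7 CPM, a ratio of 0.332 (0.255 to 0.427), against 0.667 in Ly49-negative T cells. Of genes under 50 CPM, Ifit3 was at 37 and 7.59 CPM (0.205, 0.122 to 0.326) and Usp18 at 43.4 and 13.7 CPM (0.315, 0.215 to 0.450). In Ly49-negative T cells 9 of 9 genes of the list at 50 CPM or more were under 1, with a median of 0.663, where 2023 of all 2950 genes were. The lower levels were therefore not limited to the members, and a difference between the classes was not tested.

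Gzma, Cxcl10, Eomes and Themis were among the other genes at the low end, while cytotoxic genes as a list were not. Of its 10 genes at 50 CPM or more 1 was under 0.5-fold, where 0.952% of all 2837 genes were. In this list 5 genes were under 1, where 1868 of all genes were, and the median ratio was 1.03. Gzma was at 253 CPM in lenvatinib and 89.2 CPM in combo members, a ratio of 0.352 (0.305 to 0.405). The ratio was 0.905 (0.854 to 0.959) in Ly49-negative T cells. The share of cells with Gzma was lower in combo in both classes. After thinning it was 12.1% (9.52 to 15.1%) in lenvatinib and 8.3% (5.28 to 12.3%) in combo members, with overlapping intervals. In Ly49-negative T cells it was 16.9% and 8.71%. Combo members with Cd8a and no Cd8b1 UMI were at 348 CPM, and those with neither gene at 31.7 CPM. The intervals cover counting error only, and a difference between the classes was not tested. In B cells, taken as background, Gzma was at 107 CPM (93.8 to 122) in the lenvatinib library and 18 CPM (13.5 to 23.6) in the combo library, so free Gzma RNA was lower in the combo library too, and its part in the lower level was not tested. Cxcl10, a chemokine induced by interferon, was at 221 and 81.2 CPM (0.368, 0.316 to 0.426), and its ratio in Ly49-negative T cells was 1.01. Eomes was at 93.3 and 39.1 CPM (0.419, 0.335 to 0.520) and Themis at 59.8 and 24.7 CPM (0.412, 0.310 to 0.541), with 0.383 and 0.61 in Ly49-negative T cells. Ccl4 (0.540) and Tbx21 (0.522) were also low in combo members. Rnf213, Gbp4, Ifi209 and Slfn5, further interferon-inducible genes, had ratios of 0.36 to 0.41, and Mctp2 and Fchsd2 of 0.388 and 0.411.

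Ratios of receptors and markers of the members follow. Klra1 and Klra6 set the gate in both libraries, so their ratios of 0.923 (0.851 to 1.0) and 0.765 (0.679 to 0.861) are a description of the chosen cells. Klra7 had a ratio of 0.791 (0.722 to 0.866) and Klra9 of 1.11 (0.929 to 1.32). Ikzf2 was lower in combo, at 0.681 (0.638 to 0.727), and Cd160 was higher, at 1.36 (1.22 to 1.52). Xcl1 was at 1.01 (0.965 to 1.06) and Klrd1 at 1.23 (1.15 to 1.31). None of the 12 NK receptors and adaptors at 50 CPM or more was past 2-fold in either direction. Over all 2837 genes, 1.2% were over 2-fold and 0.952% under 0.5-fold, so a count of none is near that share. Of the 12 genes 6 were under 1, where 1868 of all 2837 genes were. Il7r was close to the upper limit, at 147 and 293 CPM (1.99, 1.80 to 2.21), and the survival gene Bcl2a1b was past it, at 92.7 and 189 CPM (2.04, 1.79 to 2.33), a gene with near-identical copies. Its ratio in Ly49-negative T cells was 1.43. In that class Ikzf2 went from 276 CPM in the lenvatinib library to 109 CPM in the combo library, Klra7 from 44.9 to 22.1 CPM and Cd160 from 63.7 to 53.5 CPM. The lower Ikzf2 and Klra7 of the combo library were therefore not limited to the members, and a difference between the classes was not tested.

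Palbociclib acts on CDK4 and CDK6, so genes of this pathway were listed. None of 7 such genes at 50 CPM or more was past 2-fold. Of all 2837 genes, 1.2% were over 2-fold and 0.952% under 0.5-fold, so a count of none is near that share. The median ratio of the 7 genes was 0.897. Cdk6 was at 94.4 and 82.7 CPM (0.877, 0.743 to 1.03), Cdk4 at 69.5 and 69.8 CPM (1.01, 0.835 to 1.21), Ccnd2 at 466 and 383 CPM (0.821, 0.761 to 0.884) and Ccnd3 at 161 and 168 CPM (1.05, 0.929 to 1.18). The gate kept cells with fewer than 4 mitosis genes, so cycling cells were removed beforehand. This last step took the number from 622 to 566 cells in the lenvatinib library and from 270 to 265 in the combo library. The 10 mitosis genes summed to 69.9 and 44 CPM in the members that were left.

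**Figure D4:**
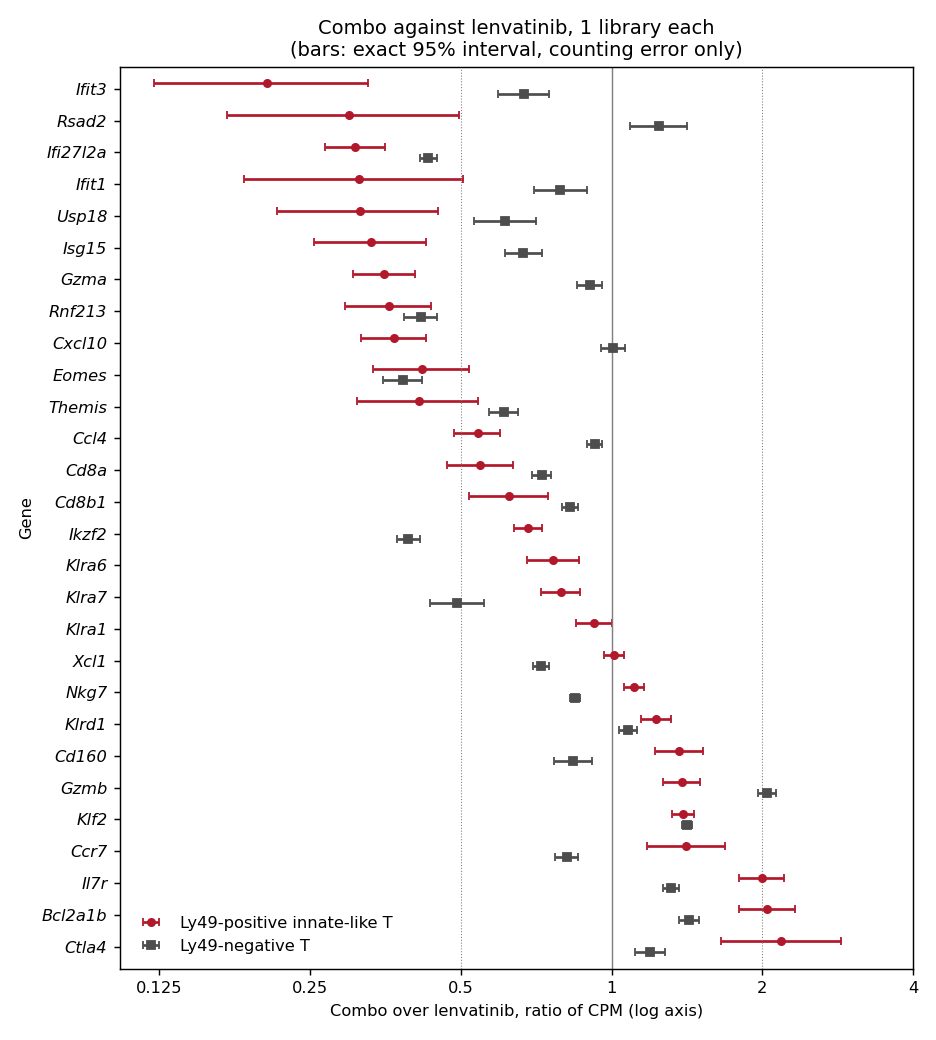
Ratio of CPM in combo over lenvatinib on a log axis, with exact 95% intervals, for selected genes in Ly49-positive innate-like T cells and, where the gate allows, in Ly49-negative T cells. Ifi27l2a, Isg15, Gzma and Cxcl10 lie under 0.5 in members, and Xcl1 and Nkg7 lie near 1. Klra1 and Klra6 set the gate.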

How the data were processed

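Live CD45+ cells of tumors were profiled by 10x 3′ scRNA-seq in 2 libraries, 1 per condition. The values deposited by the authors were unnormalized counts of UMIs for 32285 genes in each barcode, which Cell Ranger had produced from reads mapped to mm10. The submitters' processing notes name version 5.0.1, while the matrix header names 6.0.1. The libraries held 14509 and 11989 barcodes with 98107503 and 93583402 UMIs, at median depths of 5541 and 5754 UMIs per kept cell. Barcodes with over 6000 genes or over 25% mitochondrial UMIs were left out.

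The members, gene lists and motif were chosen with earlier results of these data known, so no list is independent evidence of its direction. Counts were summed per class and library and divided by the class total to give CPM. Classes were compared with edgeR 4.0.16 (quasi-likelihood, library as block, Benjamini-Hochberg adjustment) in R 4.3.3, leaving out 19 genes of the gate. These fits had 1 residual degree of freedom, and their p-values rest on a spread shared over genes (prior degrees of freedom 17.99 against Ly49-negative T cells and 4181 against NK cells). The p-values against NK cells are therefore not printed. DESeq2 1.42.0 was an alternative. Conditions were compared by CPM ratios with exact conditional 95% intervals and shares with Clopper-Pearson intervals, in scipy 1.17.1. Thinning drew 2000 UMIs per cell, leaving out shallower cells, and Scrublet (scanpy 1.11.5) assumed 6% doublets. Doublets were kept except in an alternative.

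Named genes were those of the lists, all Klra genes, V segments, and the 12 genes at each end of the ranking against Ly49-negative T cells and of the combo to lenvatinib ratio, at 50 CPM or more. A few genes beside them were named after their values were seen, such as those of the CD8 subgroups. Some genes of the lists are counted in them but not reported here by name.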

Additional observations from a re-analysis of the deposited data

Results flagged for a closer look

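Of 161 named genes with at least 50 CPM in members, 4 had ratios of combo to lenvatinib in opposite directions in members and in Ly49-negative T cells by a strict rule, in which the 95% interval in each class lay beyond both 1 and the median ratio of all genes of that class (0.901 and 0.867). Cd160, at 1.36 (1.22 to 1.52) in members and 0.839 (0.769 to 0.915) in Ly49-negative T cells, lay on opposite sides of 1 but did not clear that median. The differences between the classes were not tested, with 1 library per condition. Nkg7, a granule protein gene of cytotoxic lymphocytes, had a ratio of 1.11 (1.06 to 1.16) in members and 0.847 (0.828 to 0.866) in Ly49-negative T cells. Ccr7 had a ratio of 1.41 (1.17 to 1.69) in members and 0.814 (0.772 to 0.858) in Ly49-negative T cells. The immunoglobulin genes Ighm and Igha, which T cells do not make, had ratios of 0.662 (0.576 to 0.759) and 0.66 (0.561 to 0.775) in members, against 1.22 and 1.73 in Ly49-negative T cells.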

How the results depend on the processing

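No paired analysis was possible because there was 1 library per condition and the labels carry no replicate numbers. Library was already a block between classes. The member share was 4.76% (lenvatinib) and 2.57% (combo) with a stricter cell filter, 1.62% and 0.81% after thinning, 6.23% and 3.49% at 1 Ly49 UMI, 2.85% and 1.60% at 3 Ly49 UMIs, and 7.53% and 4.63% of CD3-positive cells. It was 2.68% in the combo library without cells over 50 neutrophil UMIs. Genes over 2-fold in combo members numbered 19 without called doublets, 19 without neutrophil-rich cells, and 19 and 73 at 100 and 20 CPM. Genes under 0.5-fold numbered 17 with TMM scaling, and 8 and 77 at 100 and 20 CPM. Against Ly49-negative T cells, 150 genes were higher and 411 lower without called doublets, and 76 and 200 with DESeq2, which gave no adjusted p for 935 genes. The lower count was 256 in cells with a CD8 UMI and 459 without cells of other lineages. Against NK cells, 460 were higher and 494 lower at 3 Ly49 UMIs, and 183 and 216 with DESeq2. The cause of these changes was not tested.

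Leaving out 1 library left no residual degrees of freedom and gave values with no test. The log2 fold change of Gzma against Ly49-negative T cells was then -0.47 to 0.89, and it was -0.045 without called doublets and -0.0343 without cells of other lineages. It passed the test at 3 Ly49 UMIs (0.52) and in cells with a CD8 UMI (0.76). Against NK cells, 1 library alone gave -0.47 to 0.15 for Cd7, -0.0856 to 0.12 for Jchain and -0.16 to 1.93 for Tmem176b. Jchain was at -0.0257 in cells with a CD8 UMI and Slpi at 0.54 without neutrophil-rich cells. Of the fold changes recomputed for named genes with a test, 226 against Ly49-negative T cells and 189 against NK cells kept direction and side of the threshold, and 7 and 17 lost the call. The alternatives on neutrophil-rich cells and other lineages were chosen after seeing the data.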
